A study of Homo sapiens with 2 samples.

Results

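The genes described here help cells to handle acid. They are the carbonic anhydrases CA2, CA9, CA12 and CA13, the monocarboxylate transporters SLC16A1 and SLC16A3, the bicarbonate transporters SLC4A7 and SLC4A4, and basigin (BSG). The genes were listed by name, with earlier results of these data known. Every probe set whose platform annotation named only 1 of them was taken. This gave 20 probe sets for 6 of the 9 genes, out of 54675 probe sets and 19775 named genes on the array. No probe set in the annotation used here named only CA9, SLC16A1 or SLC16A3, so these 3 genes were not analysed here.

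FaDu cells stably carrying GLUT4 and FaDu cells stably carrying the control vector gave 1 array each. FaDu is a squamous carcinoma line from the pharynx, and both cell populations went through lentiviral infection and puromycin selection. The methods call such lines stable clones and do not say how many clones each population held. Total RNA was hybridised to Affymetrix Human Genome U133 Plus arrays, on which each gene is read by 1 or more probe sets. A single array stood for each population, so there was no replicate and no test. Every difference below was taken on the log2 scale as GLUT4 minus vector. A gap of more than 1.5-fold (0.58 on the log2 scale) was used as the threshold.

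Carbonic anhydrases turn carbon dioxide and water into bicarbonate and a proton, and the reverse. Tumour cells that ferment glucose export lactate together with protons through monocarboxylate transporters, and they take up bicarbonate to buffer the cytosol. CA9 and CA12 are anchored in the plasma membrane with the active site facing outward, whereas CA2 and CA13 are cytosolic. Basigin is the glycoprotein that brings SLC16A1 and SLC16A3 to the cell surface.

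Among all arrayed features the 2 arrays were closely scaled. The median intensity was 39.1 on the GLUT4 array and 39.7 on the vector array. SLC2A4, which encodes GLUT4, read 32.6 on the GLUT4 array and 28.3 on the vector array, below the median signal, and whether its probe set detects the introduced sequence was not determined here. Of 8 markers of squamous or general epithelial cells, 6 were measured, all above the median signal. Their summed intensities were 34773 with GLUT4 and 34008 with vector. Among these, KRT14, a basal keratin, had a log2 difference of 1.02 and EPCAM, an epithelial adhesion molecule, one of -0.83. CDH1, also an epithelial adhesion molecule, was at -0.54, within 1.5-fold. The sums thus combine differences in both directions. Of 9 markers of blood, endothelial, fibroblast and liver cells, 6 lay below the median signal, and the summed intensity was 450 with GLUT4 and 547 with vector. On the brightest probe set, 1 of these 9 was more than 1.5-fold lower and 0 were higher, beside 1.54% and 1.84% of all genes. It was PECAM1, an endothelial and leukocyte adhesion molecule, at -1.55. The endothelial marker CDH5 (-0.17) and the leukocyte markers PTPRC (-0.03), LYZ (0.15) and TYROBP (0.29) were within 1.5-fold and below the median signal. Of the 5 PECAM1 probe sets, 3 were more than 1.5-fold lower, beside 1.22% of all probe sets, and the mean of the 5 was -0.81. COL1A1, a collagen of that list, had 1 of 5 probe sets more than 1.5-fold higher, beside 2.04% of all probe sets, with a mean of 0.16. The part of these markers in the results below was not tested. Both arrays read bulk RNA of the FaDu line. In it, fewer cells that hold a transcript and less of it per cell cannot be told apart. Technical error was judged from genes read by several probe sets. Over 10523 genes, the differences of the brightest and second brightest probe sets were 0.29 apart (SD), which corresponds to an error of 0.20 per probe set. This error does not cover variation between cultures. Nor does it cover error that both probe sets share, such as that of RNA preparation and labelling.

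CA12 was higher in GLUT4 cells, the 1 gene of the group past 1.5-fold on its brightest probe set, and each of its 7 probe sets lay above 0. CA12 is a transmembrane carbonic anhydrase of epithelia and of many carcinomas, and in cultured tumour cells it is known to respond to hypoxia. The brightest probe set, 215867_x_at, read 447 with GLUT4 and 204 with vector, 2.20-fold higher, a log2 difference of 1.14. The widest difference was that of 203963_at, which read 277 with GLUT4 and 104 with vector, 2.67-fold higher (1.42). These differences were well above 0.20, the error per probe set.

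A further pair of CA12 probe sets was also more than 1.5-fold higher. Probe set 204508_s_at read 121 with GLUT4 and 60.7 with vector, 1.99-fold higher (0.995). Probe set 214164_x_at read 350 with GLUT4 and 204 with vector, 1.72-fold higher (0.78). Of these 4, 203963_at is the one whose name does not end in x_at or s_at, the endings of probe sets that may match several transcripts or genes. The remaining 3 stayed within 1.5-fold, and they gave the lowest readings of the gene on both arrays.

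Probe set 210735_s_at read 64.7 with GLUT4 and 49.3 with vector (0.39). Probe set 241230_at read 39.8 with GLUT4 and 30.4 with vector (0.39). Probe set 204509_at read 38.9 with GLUT4 and 31.5 with vector (0.30). The last of these was designed from the same RefSeq transcript entry as 203963_at, so probe sets with a common design sequence gave both the largest and the smallest CA12 difference. Over all 7 probe sets, which read the same pair of RNA samples and are not replicates, the mean difference was 0.77 ± 0.43 (SD, n = 7 probe sets).

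**Figure D1:**
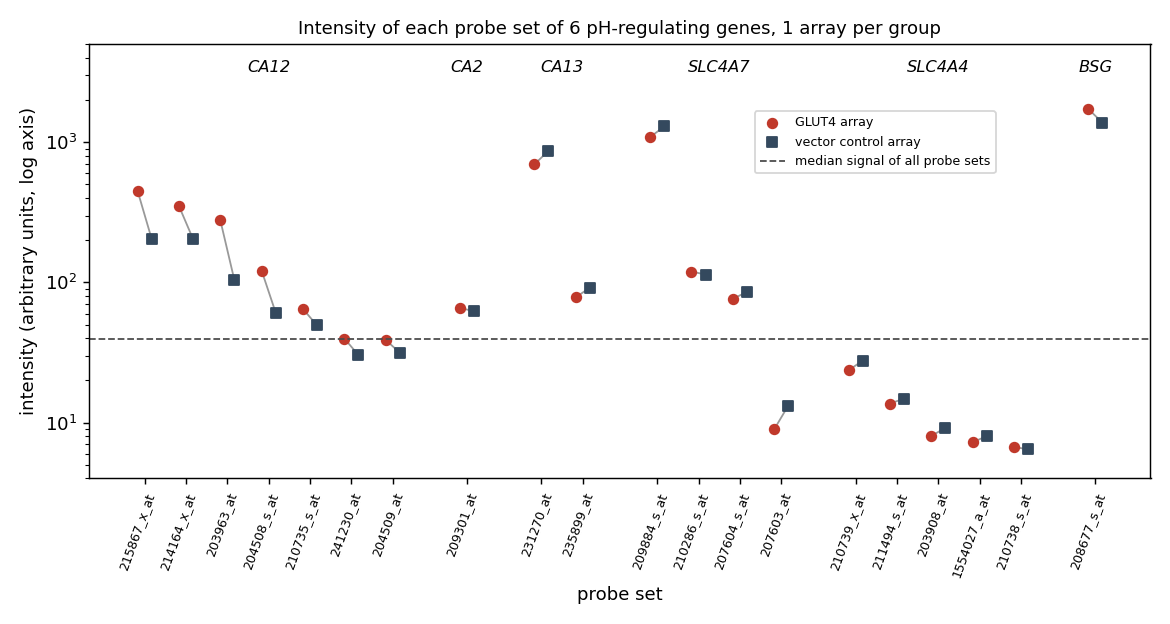
Intensity of each probe set (vertical log axis, arbitrary units) on the GLUT4 array (red circles) and the vector control array (dark squares), grouped by gene, with a dashed line at the median signal of all probe sets. CA12 circles lie above their squares on all 7 probe sets, whereas all 5 SLC4A4 probe sets lie below the dashed line on both arrays.

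Of the 20 probe sets of the group, 4 were more than 1.5-fold higher with GLUT4, all of them of CA12, beside 2.04% of all probe sets. None was more than 1.5-fold lower, beside 1.22% of all probe sets. Since the probe sets of a gene read the same transcripts, the count was also made by gene. On the brightest probe set of each gene, 1 of the 6 measured genes was more than 1.5-fold higher, beside 1.84% of all genes, and 0 were more than 1.5-fold lower, beside 1.54%. These shares describe the arrays and carry no test. The genes were chosen with earlier results of these data known. Neither these counts nor the ranks below can therefore show that the group stands out. Without probe sets ending in x_at or s_at, 1 of the 9 that are left was past 1.5-fold, again of CA12. No share of all probe sets is given for that filter. CA12 stood at rank 54 of 19775 genes from the highest difference, and 203963_at at rank 65 of 54675 probe sets. Of the 303 genes with at least 7 probe sets, 2 had at least 4 of them more than 1.5-fold higher, which is 0.66%. Both limits are the counts of CA12 itself, so CA12 had to be 1 of these, and the other was DCN, the proteoglycan decorin, which was looked up after its values were seen.

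In RefSeq, CA12 has 1 promoter window in the table used here. It is shown because CA12 was the gene past 1.5-fold and is known as hypoxia-responsive. The 250 bases before its start site, on the minus strand at chr15:63381847-63382096 of GRCh38.p14, were searched on both strands for ACGTG, the core of the hypoxia response element, and for CACGTG, the E box, which contains that core. Neither ACGTG nor CACGTG was found, so no letters are in capitals.

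CA12: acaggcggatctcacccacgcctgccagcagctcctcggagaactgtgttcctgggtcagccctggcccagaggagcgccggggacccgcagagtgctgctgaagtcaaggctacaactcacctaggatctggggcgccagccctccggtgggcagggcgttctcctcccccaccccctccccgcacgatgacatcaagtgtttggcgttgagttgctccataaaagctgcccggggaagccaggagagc

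Of all 35116 RefSeq promoter windows of this length, 18.5% hold ACGTG and 6.34% hold CACGTG on either strand. The absence of a match says only that these letters are not in this window. In a list of 5 hypoxia regulators and induced genes, 2 were more than 1.5-fold higher and none lower, beside 1.84% and 1.54% of all genes. That short list was chosen with earlier results of these data known and leaves out other hypoxia-induced genes. Whether CA12 and these genes share a response to hypoxia was not tested. ADM, a vasodilator peptide, read 2122 with GLUT4 and 865 with vector (1.29). NDRG1, a stress-response gene, read 3782 with GLUT4 and 2036 with vector (0.89). VEGFA, the angiogenic growth factor, read 1343 with GLUT4 and 1757 with vector (-0.39). The hypoxia-inducible factor subunits HIF1A and EPAS1 had differences of 0.01 and 0.18.

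The cytosolic carbonic anhydrases showed small differences. CA13 read 696 with GLUT4 and 871 with vector on its brighter probe set, 231270_at, 1.25-fold lower (-0.32). Its other probe set, 235899_at, read 78.1 with GLUT4 and 91.8 with vector (-0.23). Both CA13 probe sets were thus lower with GLUT4, and neither passed 1.5-fold. The difference of 231270_at was above the error per probe set, and that of 235899_at was little above it.

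CA2, the fast cytosolic form, had 1 probe set, which read 65.8 with GLUT4 and 62.2 with vector (0.08). That difference was below the error per probe set. CA2 and CA13 belong to a cluster of carbonic anhydrase genes that also holds CA1 and CA3, both of which lay below the median signal. CA1 read 32.5 with GLUT4 and 36.8 with vector, and CA3 read 7.73 with GLUT4 and 6.46 with vector.

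SLC4A7 encodes an electroneutral cotransporter that carries sodium and bicarbonate into the cell. Its brightest probe set, 209884_s_at, read 1088 with GLUT4 and 1297 with vector, 1.19-fold lower (-0.25). Probe set 210286_s_at read 120 with GLUT4 and 114 with vector (0.07), and 207604_s_at read 76.3 with GLUT4 and 85.5 with vector (-0.16). The differences of 210286_s_at and 207604_s_at were within the error per probe set, so their signs give no direction.

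The fourth SLC4A7 probe set, 207603_at, was at 8.93 with GLUT4 and 13.2 with vector. Its difference of -0.56 was just inside 1.5-fold, but it came from readings well below the median signal, and with 32 added to every intensity it was -0.14. The mean over the 4 probe sets was -0.23 ± 0.26 (SD, n = 4 probe sets).

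SLC4A4 encodes the electrogenic sodium bicarbonate cotransporter best known from kidney and pancreas. It gave low readings in both cell populations. All 5 of its probe sets lay below the median signal, between 6.45 and 27.7 over both arrays. The brightest, 210739_x_at, read 23.6 with GLUT4 and 27.7 with vector (-0.23), which was little above the error per probe set. The other 4 had differences between -0.19 and 0.06, none of them beyond the error per probe set.

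BSG had 1 probe set, 208677_s_at, which read 1733 with GLUT4 and 1382 with vector, 1.25-fold higher (0.33). This was more than the error per probe set and within 1.5-fold. The transporters that basigin escorts, SLC16A1 and SLC16A3, were among the genes not analysed here. RefSeq lists 2 promoter windows for BSG, and the one shown holds an E box in capitals. It is given as the 1 window with a match to ACGTG or CACGTG among 10 windows of CA12, BSG, SLC4A7 and SLC4A4. The 250 bases are on the plus strand at chr19:572346-572595 of GRCh38.p14.

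BSG: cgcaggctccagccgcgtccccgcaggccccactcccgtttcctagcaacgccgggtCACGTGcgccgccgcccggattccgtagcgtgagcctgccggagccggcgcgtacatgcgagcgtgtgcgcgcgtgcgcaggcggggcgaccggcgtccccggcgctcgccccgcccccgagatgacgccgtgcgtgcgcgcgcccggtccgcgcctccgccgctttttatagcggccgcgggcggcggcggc

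The match starts 193 bases before the start site, and GC makes up 78.4% of this BSG window and 64.8% of the CA12 window, beside a median of 58% over all windows.

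**Figure D2:**
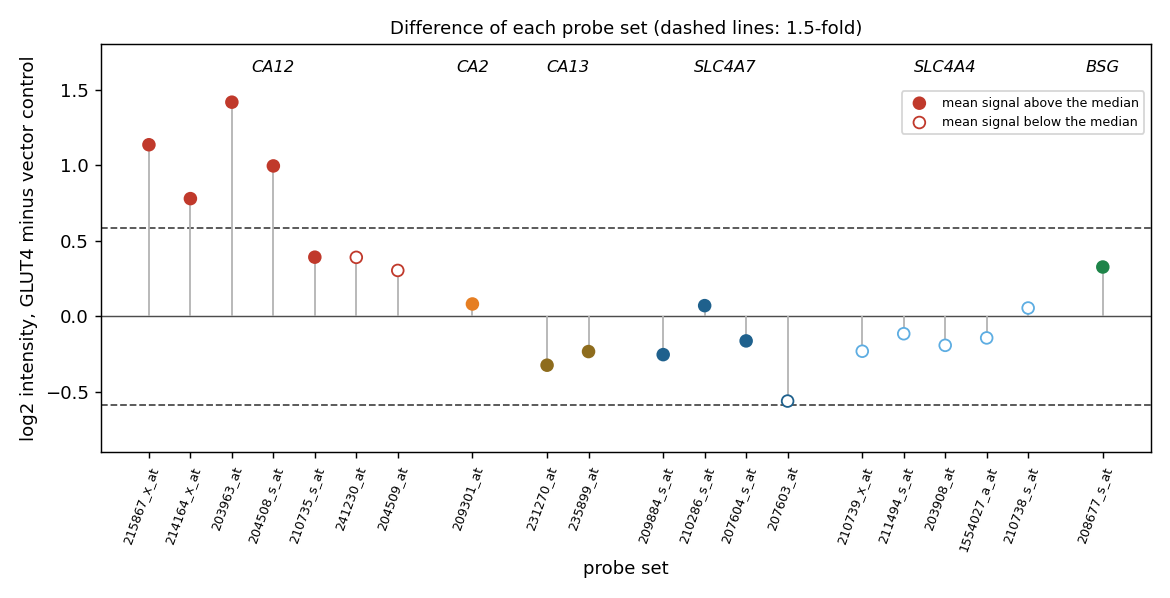
Log2 difference, GLUT4 minus vector control (vertical axis), for each of the 20 probe sets, with dashed lines at 1.5-fold and open circles for probe sets whose mean signal lies below the median of all probe sets. The 4 points above the upper dashed line belong to CA12, and no point lies below the lower line.

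Ordered by the difference on the brightest probe set, the genes ran from CA12 (1.14) over BSG (0.33), CA2 (0.08), SLC4A4 (-0.23) and SLC4A7 (-0.25) to CA13 (-0.32). The gap of 0.81 between CA12 and BSG exceeded 0.29, the SD between paired probe sets. The gap between CA2 and SLC4A4 was 0.31, barely above that SD, and the other neighbours were closer than it. The median over the 6 genes was -0.07, beside -0.02 over all genes. Outside CA12, 9 of 13 probe sets lay below 0 and 4 above.

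**Figure D3:**
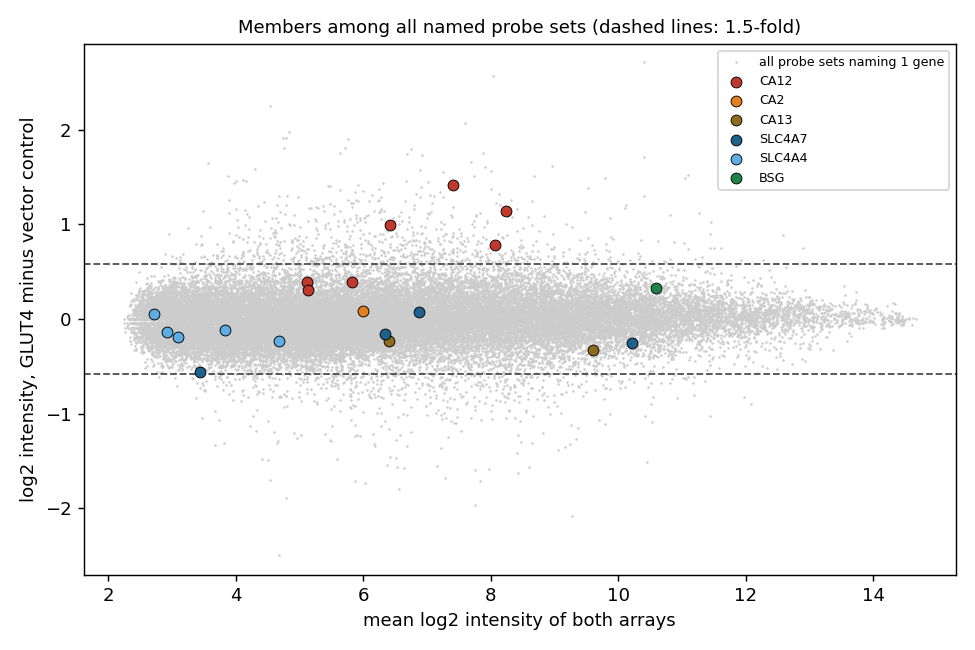
Each point is a probe set, with the mean log2 intensity of both arrays on the horizontal axis and the log2 difference, GLUT4 minus vector control, on the vertical axis. Grey points are all probe sets naming 1 gene, coloured points the 6 genes described, and dashed lines mark 1.5-fold. The CA12 points past the upper line have intermediate signals, and the points of the other genes lie within the grey band.

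Genes that work beside these were read from 8 lists with 85 genes, of which 72 were measured. On the brightest probe set, 1 was more than 1.5-fold higher with GLUT4 and 0 were more than 1.5-fold lower, beside the 1.84% and 1.54% of all genes. The gene that passed was SLC16A14, a little-studied relative of the monocarboxylate transporters. Its single probe set, 238029_s_at, read 184 with GLUT4 and 88.2 with vector, 2.09-fold higher (1.06). This probe set ends in s_at. Without probe sets ending in s_at or x_at, 60 related genes were left, of which 0 were more than 1.5-fold higher. The 1 more than 1.5-fold lower was ATP6V0A2 of the vacuolar ATPase. No share of all genes is given for that filter, so this count has no matching comparison. The median over the 72 genes was -0.04.

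The other carbonic anhydrases gave low signals. Of 11 measured, 7 lay below the median signal and none passed 1.5-fold, with differences from -0.34 to 0.26. CA7, a cytosolic form, was the brightest of them at 63.4 with GLUT4 and 59.2 with vector (0.10). CA12 was thus the 1 carbonic anhydrase past 1.5-fold among the 14 measured, and CA9 was not among these.

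Of 7 further genes of the monocarboxylate transporter family, 6 were within 1.5-fold. SLC16A9 was the brightest of the 7, at 449 with GLUT4 and 337 with vector (0.41). Of 11 further bicarbonate transporters, none passed 1.5-fold, and their differences ran from -0.23 to 0.11. SLC4A2, an anion exchanger, was the brightest of these, at 66.6 with GLUT4 and 70.1 with vector (-0.07).

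Genes of proton extrusion and lactate production were also close between the arrays. Of 8 sodium proton exchangers and cofactors, none passed 1.5-fold. CHP1, a calcium-binding cofactor of these exchangers, was the brightest, at 4020 with GLUT4 and 4029 with vector (0.00). All 22 measured subunits and accessory proteins of the vacuolar ATPase, which pumps protons out of the cytosol, were within 1.5-fold on the brightest probe set, with 14 below 0 and 8 above. ATP6V0A2, a membrane subunit, had 1 of its 6 probe sets past 1.5-fold, at 173 with GLUT4 and 280 with vector (-0.69), and this gene was singled out after its values were seen.

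LDHA, which makes lactate from pyruvate, read 14654 with GLUT4 and 13894 with vector (0.08), and all 5 lactate and pyruvate enzymes were within 1.5-fold. EMB and NPTN, relatives of basigin, were at -0.10 and -0.16, and the proton channel HVCN1 was at -0.03. Of 5 proton sensors measured, none passed 1.5-fold.

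**Figure D4:**
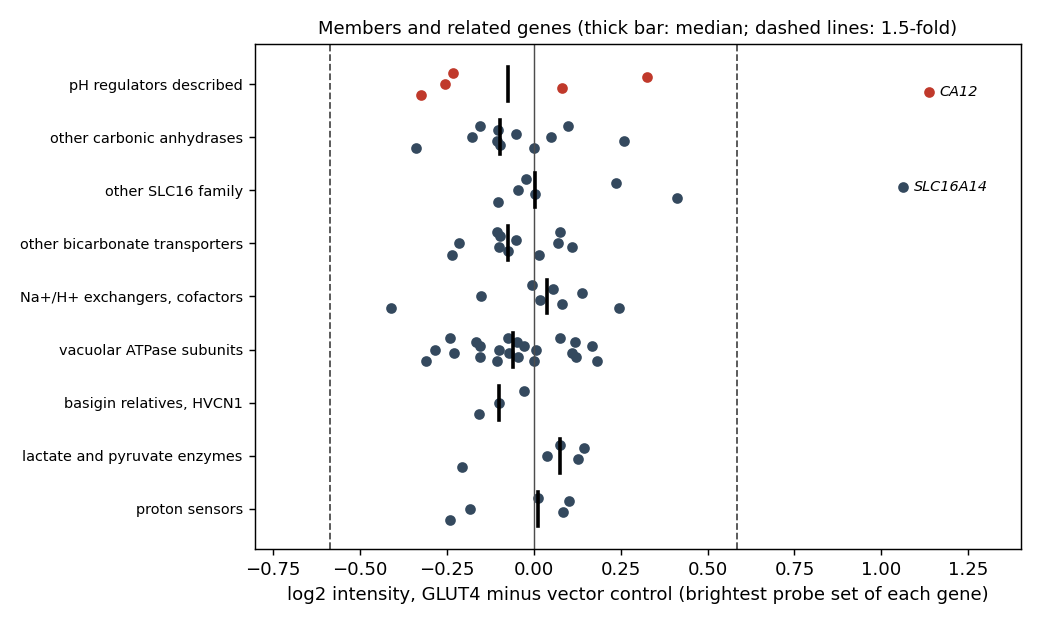
Log2 difference, GLUT4 minus vector control (horizontal axis), on the brightest probe set of each gene, with 1 row per list, a thick bar at the median of the list and dashed lines at 1.5-fold. The rows are the 6 measured genes described and the 8 related lists, without the hypoxia and marker genes, and of the genes in these rows CA12 and SLC16A14 lie past a dashed line.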

How the data were processed

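The values that the authors deposited are probe set intensities on a linear scale, 1 array per group, already scaled between the arrays. MAS5 is named, with no version, in the submitters' processing notes, and log2 normalization in GeneSpring in the methods. The order of both steps is not stated. No detection calls were used. Intensities were floored at 1 and turned to log2. For each gene the probe set brightest on average was the main one, and a probe set naming several genes (1801) or none (11777) was not used for a gene. Symbols were updated by gene ID through RefSeq of GRCh38.p14. The members and lists were chosen with earlier results of these data known. All members are given on every probe set, and of the related lists the genes past 1.5-fold and, in 4 families, the brightest gene, while any hypoxia, marker or lactate gene could be named. CA1, CA3, EMB, NPTN, HVCN1 and ATP6V0A2 fall outside that rule and were chosen after their values were seen. The number of arrays limits the precision. Promoters came from RefSeq, with a window for 4 genes shown or searched, and CA2 and CA13 were not searched. The code was run on simulated data whose noise was independent and equally wide for all probe sets. That run checks the calculation and says nothing about the error of these arrays. Python 3.11.15 was used with pandas 2.3.3, numpy 2.4.6, statsmodels 0.14.6 and matplotlib 3.10.9.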

Additional observations from a re-analysis of the deposited data

How the results depend on the processing

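The alternatives were 3 scalings (loess with a fraction of 0.3, quantile, equal medians), 32 added to every intensity, only probe sets above the median signal, no probe sets ending in x_at or s_at, the mean over a gene's probe sets and a 2-fold threshold. CA12 was more than 1.5-fold higher under each of them, and more than 2-fold on its brightest probe set. Under the 3 scalings, its 4 probe sets past 1.5-fold lay between 0.76 and 1.44. With 32 added to every intensity they were lower, at 1.19 for 203963_at, 1.02 for 215867_x_at, 0.72 for 204508_s_at and 0.69 for 214164_x_at. The count of probe sets past 1.5-fold was 1 in place of 4 without x_at and s_at, which leaves 9 of the 20 probe sets, and 2 past 2-fold. No share of all probe sets or genes is given for these alternatives, so their counts have no matching comparison. Averaged over all probe sets, CA12 was at 0.77 in place of 1.14. Of 84 alternative values of single probe sets and genes that could move, 80 moved by less than 0.20 and 0 changed sign. The 4 that moved by more were 203963_at and 204508_s_at of CA12 and 207603_at of SLC4A7 with 32 added, and CA12 averaged. The median of the measured members was -0.07, 0.08 with only probe sets above the median signal, which drops SLC4A4, and -0.19 without x_at and s_at, which drops BSG. Without x_at and s_at, SLC16A14 has no probe set and ATP6V0A2 is read by the one at -0.69, so that 0 related genes were higher and 1 lower. No paired analysis was possible because each group has 1 array. The number of arrays limits every value, and all SLC4A4 readings lie below the median signal.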

Other observations

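The protein-coding genes next to CA12 in RefSeq, a pair on each side, were looked up after the values of CA12 were known. APH1B, a subunit of gamma-secretase, read 105 with GLUT4 and 84.3 with vector (0.32). RAB8B, a small GTPase, read 976 with GLUT4 and 883 with vector (0.15), and USP3, a deubiquitinase, read 1278 with GLUT4 and 1324 with vector (-0.05). FBXL22, an F-box protein, read 21.1 with GLUT4 and 19.1 with vector (0.14), below the median signal. None of these 4 neighbours passed 1.5-fold on its brightest probe set.

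Next to CA13, E2F5, a transcription factor of the cell cycle, read 134 with GLUT4 and 177 with vector (-0.40), and RBIS, a ribosome biogenesis factor, read 4483 with GLUT4 and 3832 with vector (0.23). The neighbours of CA13 on that side thus lay on opposite sides of 0 and within 1.5-fold.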
